A study of Macaca fascicularis with 44 samples.

Results

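The genes described here had lower RNA levels at each of 2 successive steps in endothelial cell (EC) preparations of the cynomolgus monkey (Macaca fascicularis) cortex, from isolated microvessels to cultured cells and from these to re-plated cells. A gene was a member if its mean in cultured cells (P0D7) was at least 1 FPKM and at most 50% of its mean in isolated microvessels (P0D0), and if its mean in re-plated cells (P1D7) was at most 50% of that at P0D7. FPKM, as the authors deposited it, is a fragment count divided by gene length and by library total. Of 28623 gene identifiers, 11262 reached a mean of 1 FPKM at P0D7, and 213 of these met the rule. The members were chosen by mean FPKM of the cortical fractions, so all values of the members in these fractions are a description of how they were picked.

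Brain capillary ECs form the blood–brain barrier. They are joined by tight junctions, transport nutrients with dedicated carriers and pump drugs back into the blood, and they hold these properties under signals from the neighbouring pericytes and astrocytes. Brain ECs in culture are known to lose part of this profile with time and passage, and a microvessel isolate also carries RNA of cells that adhere to the vessel wall.

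The series held 44 RNA-seq libraries of male and female animals. The cortex gave 8 libraries of P0D0 (microvessels obtained by enzymatic digestion and centrifugation on a gradient), 8 of P0D7 (these cells after 7 days in endothelial growth medium, purified with puromycin per the study's methods) and 6 of P1D7 (the same cells detached and grown for 7 more days). Brainstem (6 libraries), hippocampus (7), striatum (7) and cerebellum (2) were sequenced at P0D7 only. No group carried a genetic change. The titles carry 10 codes such as BBB029, taken here to mark preparations. The codes were shared between fractions and structures, and the labels did not say whether a code was 1 animal. The study's methods describe fewer animals than there are codes, so some codes may share an animal. All p-values therefore measure the spread between these libraries.

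Library totals ran from 8600889 to 24450445 counts. The P0D0 libraries held 8600889 to 10738453 counts, and of the cultured ones only the hippocampus library of BBB029, with 8633089, was as shallow. The files pair no identifier with a gene symbol, and 0 of 28623 identifiers matched the reference table used here. The members are therefore described as a group, with 4 identifiers as examples. Neither the markers of endothelial, glial, neuronal and mural cells nor any pathway list could be applied, so the labelled cell types were not checked and the share of other cells in P0D0 was not tested. In such bulk libraries, fewer cells of a type and less RNA per cell cannot be told apart.

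The members were well expressed genes of the isolated vessel and faint genes of the re-plated cell. Over the 213 members, the median of the mean levels was 22.2 FPKM at P0D0 (range 2.52 to 1456), 3.02 FPKM at P0D7 (1.00 to 309) and 0.82 FPKM at P1D7 (0.035 to 97.9). At P0D0, 149 members had a mean of at least 10 FPKM, against 43 at P0D7 and 14 at P1D7. At P1D7, 124 members were under 1 FPKM on average, and 5 of these were under 0.1 FPKM.

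Each library showed this order. The median FPKM of the members was 18.3, 21.0 and 22.9 at P0D0 (lowest, median and highest of 8 libraries), 2.14, 2.85 and 3.57 at P0D7 (8 libraries) and 0.738, 0.812 and 0.957 at P1D7 (6 libraries), so the fractions did not overlap. Together the members took up 3.38% to 4.78% of a library's counts at P0D0, 0.583% to 0.776% at P0D7 and 0.207% to 0.266% at P1D7. A few of them held much of this share, as the 10 most abundant members had 48.8% of the members' counts at P0D0, 51.0% at P0D7 and 55.1% at P1D7.

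**Figure D1:**
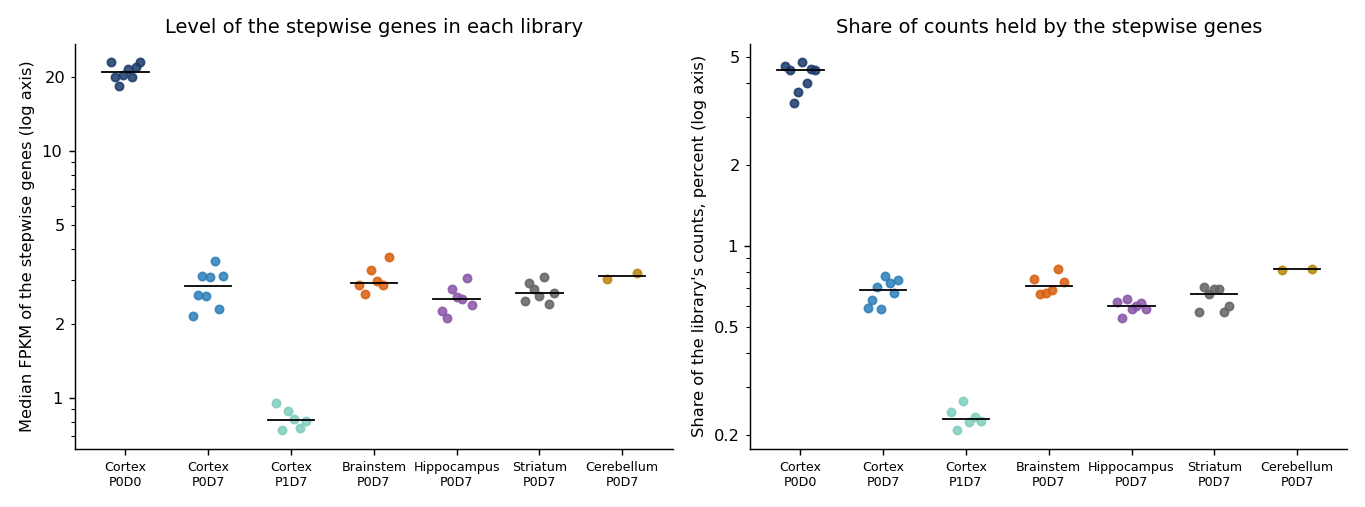
Left, median FPKM of the 213 stepwise genes in each of the 44 libraries (log axis); right, the percentage of each library's counts that they held (log axis). Points are libraries and lines are group medians. The P0D0 libraries lie at 18.3 to 22.9 FPKM, cortex P0D7 at 2.14 to 3.57 and P1D7 at 0.738 to 0.957, while the other structures lie near cortex P0D7.

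The first fall was usually the larger. From P0D0 to P0D7 the mean level fell by a median factor of 5.15 (range 2.00 to 180), and from P0D7 to P1D7 by a median factor of 3.16 (2.01 to 38.2). Over both steps the median factor was 18.8 (4.18 to 753). In 145 members the first step was the larger and in 68 the second, and the first step made up a median of 56.5% of the whole fall on the log2 scale. A fall of at least 32-fold was seen in 11 members at the first step and in 2 at the second. The sizes of the falls were only weakly related across the 213 members (Pearson r = 0.15 and Spearman rho = 0.20 on the log2 scale). This is given as a description, because members share their libraries and both falls contain the P0D7 mean. The order of the members was kept more closely at the second step, with r = 0.75 between log2 levels at P0D0 and P0D7 and r = 0.92 between P0D7 and P1D7.

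Most genes that fell 2-fold on culture did not fall 2-fold again. Of the 1858 expressed genes that reached the 2-fold limit at the first step, 11.5% also reached it at the second, against 7.54% of the 9404 genes that did not fall 2-fold at first. The 1645 genes with a fall at the first step only had median levels of 18.7 FPKM at P0D0, 5.01 at P0D7 and 5.05 at P1D7. They started near the level of the members and then stayed level on re-plating. The 709 genes with a fall at the second step only went from 2.79 FPKM at P0D0 through 8.62 at P0D7 to 2.72 at P1D7, so on the median this group was higher at P0D7 than at P0D0 before it fell.

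**Figure D2:**
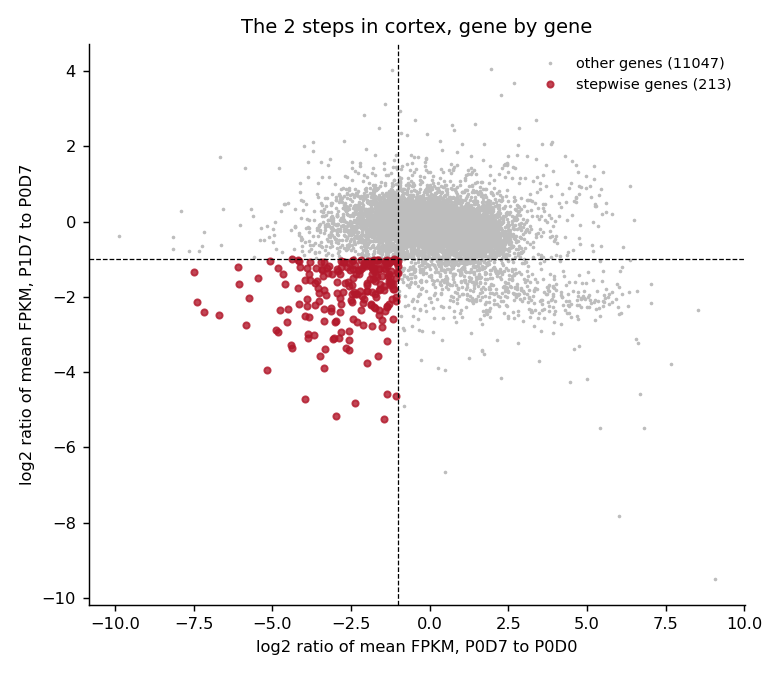
Each point is a gene with a mean of at least 1 FPKM at P0D7. The horizontal axis gives the log2 ratio of mean FPKM between P0D7 and P0D0 and the vertical axis that between P1D7 and P0D7; 2 genes at 0 in P0D0 are not drawn. The 213 stepwise genes (red) fill the lower left corner beyond the dashed 2-fold limits, and their falls reach a factor of 180 at the first step and 38.2 at the second.

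Some members sat close to the limits. The members nearest to them had a P0D7 mean of 49.94% of P0D0, a P1D7 mean of 49.83% of P0D7 and a P0D7 mean of 1.0027 FPKM, while the closest genes left out had 50.89%, 50.54% and 0.9928 FPKM. With each of the 22 cortical libraries left out in turn, 139 members met the rule every time and 74 failed it at least once, 31 of these without only 1 particular library. These 74 are the less firm part of the list.

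The falls of the means were not always free of overlap between single libraries. All P0D7 libraries were under the lowest P0D0 library in 143 members (67.1%), against 24.2% of the 13522 genes tested in cortex. All P1D7 libraries were under the lowest P0D7 library in 83 members (39.0%), against 8.22% of all genes. Both held in 67 members (31.5%; 1.18% of all genes), and in 54 members the libraries overlapped at both steps. The rule itself raises these shares above those of all genes.

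In 6 preparations all cortical fractions were sequenced. Within them, 189 (BBB035) to 208 (BBB030) members were lower at both steps. All 6 preparations showed both falls in 154 members and 5 showed them in 43 more. A fall of at least 2-fold at both steps was present in 121 (BBB031) to 162 (BBB029) members per preparation, and in all 6 preparations for 47 members. The libraries of these preparations entered the rule, and all genes were not counted in this way, so these numbers are a description.

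The test across all genes gave the same picture as a description. With edgeR's quasi-likelihood test (at least 1.5-fold, Benjamini-Hochberg adjusted p of at most 0.05 over 13522 genes), 210 members were lower at P0D7 than at P0D0, where 35.7% of all genes were called lower. At the second step 178 members were called lower, against 9.45% of all genes, and 177 were lower at both steps, against 3% of all genes (174 members and 3.31% of all genes with the preparation as a block). All 213 passed the expression filter, and all were lower at P1D7 than at P0D0, as were 34.3% of all genes. The rule used these contrasts, so nothing is read from the counts.

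The 2 members with the highest P0D0 level among those without overlap show the pattern. ENSMFAG00000044045 had 631, 1405 and 1769 FPKM (lowest, median and highest) at P0D0, with a mean of 1341 ± 373 (SD, n = 8). At P0D7 its libraries held 67.3, 114 and 147 FPKM (107 ± 30.7, n = 8), and at P1D7 28.7, 35.5 and 39.2 FPKM (34.7 ± 4.39, n = 6). It was thus abundant in the isolated vessel, lost most of this on culture, and was still detected after re-plating, with at least 1150 counts in every P1D7 library. The fitted log2 fold changes of ENSMFAG00000044045 were -3.65 (SE 0.20) and -1.45 (SE 0.21) at the 2 steps. Within preparations the first fall ranged from 5.10-fold in BBB032 to 24.5-fold in BBB035, and the second from 1.75-fold in BBB035 to 4.51-fold in BBB036. BBB035 therefore had the largest first fall and the smallest second one. Both falls contain its P0D7 library, which had 68.5 FPKM, against 109 to 147 in the other preparations with all cortical fractions.

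ENSMFAG00000031833 fell less on culture and was the most abundant member at P0D7. It had 469, 736 and 929 FPKM at P0D0 (730 ± 178, n = 8), 179, 306 and 431 at P0D7 (309 ± 85, n = 8) and 81.1, 97.7 and 128 at P1D7 (97.9 ± 17.1, n = 6). The highest P0D7 library came close to the lowest P0D0 library, and both belonged to BBB031, in which the first fall was 1.09-fold only. In the other 5 preparations it was 1.79-fold to 4.45-fold, and the second fall was 1.81-fold to 4.61-fold in all 6. Its fitted log2 fold changes were -1.17 (SE 0.15) and -1.49 (SE 0.17).

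**Figure D3:**
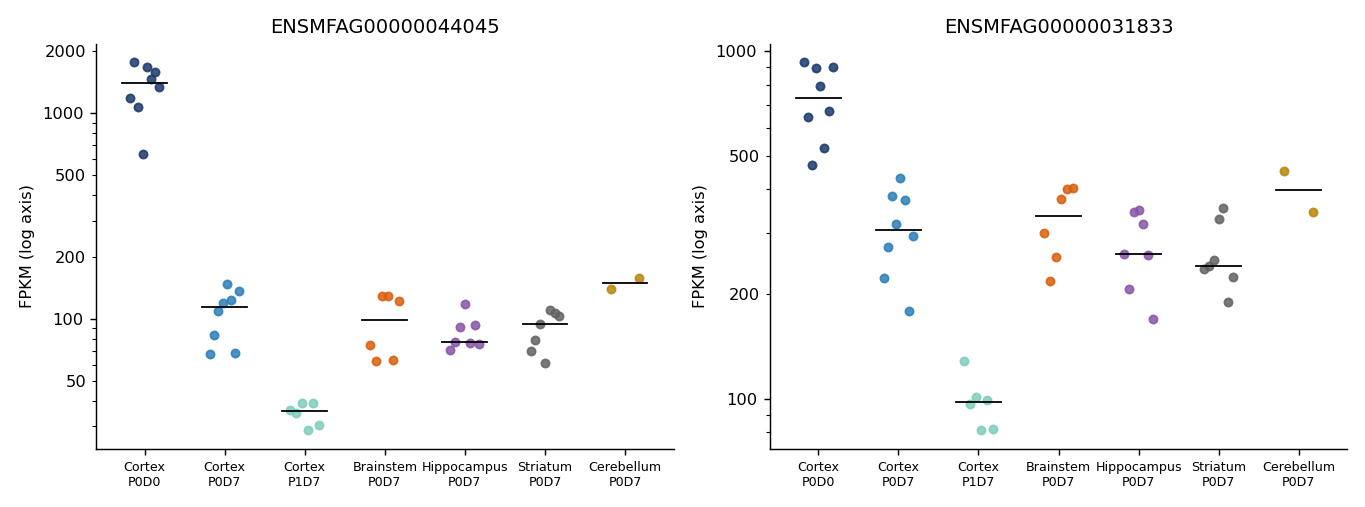
FPKM (log axis) of ENSMFAG00000044045 and ENSMFAG00000031833 in each library of the 7 groups, with group medians as lines. Cortex P0D7 lies between P0D0 and P1D7 without overlap in both genes, and the ranges of brainstem, hippocampus and striatum overlap that of cortex P0D7.

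The members varied more between libraries than other genes did. Their median coefficient of variation of FPKM was 32.1% at P0D0, 49.5% at P0D7 and 40.9% at P1D7, against 26.2%, 24.0% and 14.4% over all genes tested in cortex. Outside cortex it was 42.8% in brainstem, 44.1% in hippocampus and 48.4% in striatum, where all genes tested had 21.9%, 19.1% and 20.3%. Genes with a fall at the first step only had 17.5% to 27.3% in these groups. In P0D0, where members were abundant, the gap was small. The gap was wide in cultured cells, in which members were also fainter (median 3.02 FPKM at P0D7) than the genes that fell at neither step (15.5 FPKM), and the part of the level in it was not tested.

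Cultured ECs of the other structures had the members at about the level of cultured cortical ECs. The median of the members' means was 3.23 FPKM in brainstem, 2.76 in hippocampus, 2.90 in striatum and 3.55 in the 2 cerebellum libraries. Between 182 (cerebellum) and 199 (striatum) members lay within 2-fold of their cortex P0D7 mean. The log2 means of the members correlated with those of cortex P0D7 at r = 0.92 to 0.95, a description over 213 genes that share preparations. With the mean of another structure put in the middle, both 2-fold steps still held for 159 members in brainstem, 145 in hippocampus, 161 in striatum and 150 in cerebellum, and for 98 members in all of them. These counts share the P0D0 and P1D7 libraries with the rule, and only the middle value is new. For 15 members the steps held with none of the other structures.

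Hippocampus had the lowest median level of the structures. In hippocampus, 149 of 213 members had a lower mean than in cortex P0D7, with a median ratio of 0.848, while the median ratio was 0.976 in brainstem, 0.950 in striatum and 1.1 in cerebellum. The cortex mean entered the rule, so these ratios are no independent test. Neither brainstem nor hippocampus entered it, although their libraries share preparations with cortical libraries that did. The members held 0.661% to 0.821% of the counts in the 6 brainstem libraries (median 0.712%) and 0.540% to 0.635% in the 7 hippocampus libraries (median 0.599%), without overlap. In each of the 6 preparations with both structures the brainstem share was the higher, with the smallest gap in BBB029 (0.668% and 0.635%) and the widest in BBB031 (0.821% and 0.599%). Striatum, with 0.568% to 0.703%, overlapped both, and the cerebellum libraries held 0.814% and 0.823%. The members' median FPKM per library, unlike their share, did overlap between brainstem (2.63 to 3.74) and hippocampus (2.10 to 3.05). Within each of the 6 preparations this median was the higher in brainstem.

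Gene by gene, the result depended on the pairing of libraries by preparation. Without it, edgeR called 0 members between brainstem and hippocampus, and 0% of all 12114 genes. At an unadjusted p under 0.05 there were 45 members (21.1%) and 11.4% of all genes, and DESeq2 called 0 members and 8 of all genes. Libraries of the same preparation deviated together between these structures, and once the preparation was fitted as a block, 46 members (21.6%) were called by edgeR, against 4.4% of all genes. Of these, 41 were higher in brainstem and 5 in hippocampus, where 2.29% and 2.11% of all genes were called. The 41 members higher in brainstem differed by log2 fold changes of 0.59 to 3.03 (median 0.97; adjusted p 0.0109 to 0.0492). Among genes with a fall at the first step only, the same fit called 7.17%, and among those with a fall at the second step only 6.49%. Of the 139 members that met the rule without any single library, 29 were called, 25 higher and 4 lower in brainstem (20.9%).

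The number of calls depended on most of the libraries. Without brainstem of BBB027, BBB029, BBB030 or BBB031 the members called fell to 7, 15, 5 and 14, and without hippocampus of BBB028, BBB029, BBB030, BBB031 or BBB032 to 9, 16, 11, 24 and 15. All genes called fell in the same fits, to between 0.528% and 2.22%. Without any other of the 13 libraries, 35 to 46 members were called. In all 13 fits the share of members called was above that of all genes.

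The direction was also visible without a model. The level here was log2 CPM, a count divided by the TMM-scaled library total, with a prior count of 2 and without gene length. TMM scaling brings libraries to a common level over all genes. In 63 members (29.6%) the level was higher in brainstem than in hippocampus in all 6 preparations, against 16.3% of all genes. In 24 members (11.3%) it was lower in all 6, against 16.8%. The median log2 difference of the members was 0.13 (BBB029) to 0.35 (BBB030) in the 6 preparations, where that of all genes lay between -0.01 and 0.01. This lean was not particular to the members. With the block, the fitted difference was above 0 in 65.7% of members and in 70.6% of the genes with a fall at the first step only, against 50% of all genes, with median log2 differences of 0.24 and 0.15. Genes with a fall at the second step only leaned the other way, with 18.9% above 0 and a median of -0.35.

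**Figure D4:**
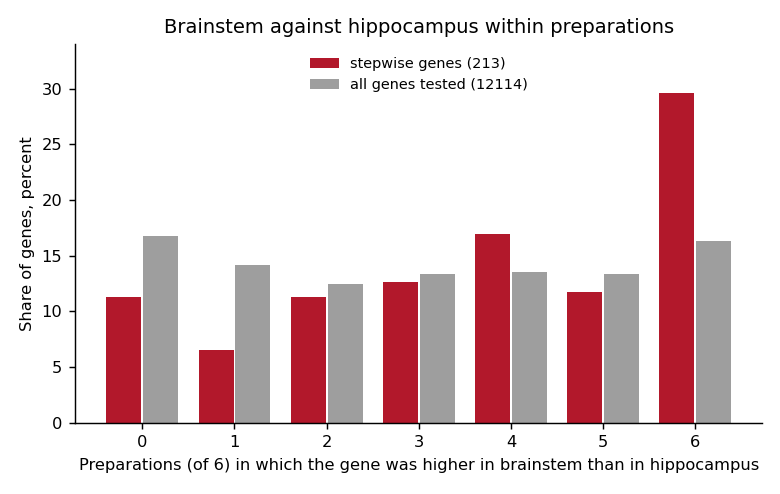
Percentage of the 213 stepwise genes (red) and of all 12114 genes tested (grey), by the number of preparations in which the gene had a higher TMM-scaled log2 CPM in brainstem than in hippocampus. At 6 of 6 preparations stand 29.6% of the stepwise genes and 16.3% of all genes; at 0 of 6 stand 11.3% and 16.8%.

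The 2 members with the smallest p among those higher in brainstem were ENSMFAG00000040183 and ENSMFAG00000032399. ENSMFAG00000040183 had 5.79, 15.3 and 25 FPKM in brainstem (lowest, median and highest of 6) and 0.453, 1.66 and 16.1 in hippocampus (of 7). The ranges overlapped, as the hippocampus libraries of BBB031 (6.67 FPKM) and BBB035 (16.1) lay above the lowest brainstem library (BBB028, 5.79). No brainstem library was sequenced for BBB035. Within the 6 preparations brainstem was 2.12-fold to 38.9-fold higher, and the fitted log2 difference with the block was 2.76 (SE 0.54; edgeR adjusted p = 0.0109). Without the block it was 1.75 (edgeR adjusted p = 0.395), and 2.60 when the hippocampus library of BBB035 was also left out. Its place among the members is less firm. At P0D7 the cortex library of BBB035 had 55 FPKM and the other 7 had 1.59 to 9.38, and without that library the gene did not meet the rule. Its second fall was not called without the block (edgeR adjusted p = 0.0833).

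ENSMFAG00000032399 was more even. It had 30.1, 37.3 and 73.9 FPKM at P0D0, 1.04, 2.70 and 5.40 at P0D7 and 0.540, 0.901 and 1.59 at P1D7 in cortex. Brainstem libraries held 4.00, 6.18 and 10.9 FPKM and hippocampus libraries 1.46, 2.81 and 5.14, so that their ranges overlapped. Within preparations brainstem was 1.5-fold (BBB032) to 3.95-fold (BBB028) higher, with a fitted log2 difference of 1.04 (SE 0.21; edgeR adjusted p = 0.0112 with the block and 0.332 without it). The gene was also higher in brainstem than in cortex with the block (log2 difference 1.03, edgeR adjusted p = 0.00632), and did not pass between hippocampus and cortex (log2 difference -0.02, edgeR adjusted p = 0.971).

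**Figure D5:**
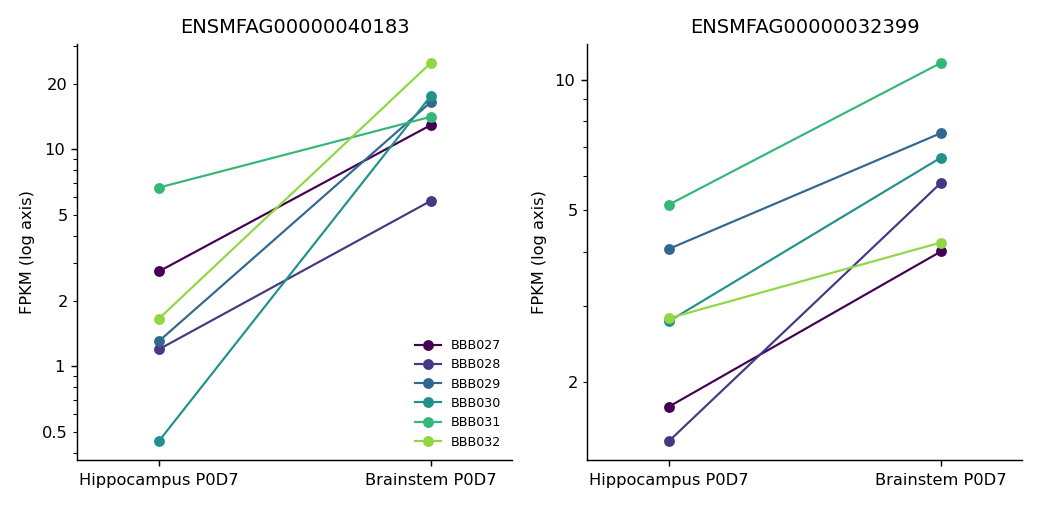
FPKM (log axis) of ENSMFAG00000040183 and ENSMFAG00000032399 in hippocampus and brainstem P0D7 cells, with lines joining libraries of the same preparation. All 6 lines rise towards brainstem in both genes, by 2.12-fold to 38.9-fold in the first and 1.5-fold to 3.95-fold in the second.

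Between striatum and hippocampus edgeR called 0 members (0% of all genes), with 21 members (9.86%) at an unadjusted p under 0.05, against 4.80% of all genes, and DESeq2 called 1 member and 4 of all genes. With the block it called 0 members (0.033% of all genes) and 61 (28.6%) had an unadjusted p under 0.05, against 18.6% of all genes. Between brainstem and striatum edgeR called 0 members with and without the block (0% of all genes in each), with 18 (8.45%) and 5 (2.35%) members at an unadjusted p under 0.05, against 3.94% and 1.27% of all genes, and DESeq2 called 0 members and 0 of all genes. Whether brainstem differed more from hippocampus than striatum did was not tested.

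Comparisons with cortex share the P0D7 libraries that entered the rule. Without the block, 2 members were higher in brainstem than in cortex (0.124% of all genes higher), 2 were lower in hippocampus (0.173% lower), and 0 were called in striatum, where 0.0991% of all genes were called, 24 members (11.3%) and 8.28% of all genes had an unadjusted p under 0.05, and DESeq2 called 2 members and 29 of all genes. With the block, 19 members were higher and 6 lower in brainstem (1.53% and 1.73% of all genes), 4 higher and 19 lower in hippocampus (1.47% and 1.22%), and 7 higher and 12 lower in striatum (0.966% and 1.21%). Of the 41 members higher in brainstem than in hippocampus, 10 were also higher in brainstem than in cortex, 9 were lower in hippocampus than in cortex, and 22 were called in neither comparison. These comparisons share the brainstem or the hippocampus libraries. The matching overlap over all genes was not counted, so nothing is read from these numbers. Cerebellum, with 2 libraries, was not tested. The more abundant examples were not called between structures. ENSMFAG00000044045 had means of 96.8 ± 33.3 FPKM in brainstem (n = 6), 86.3 ± 16.6 in hippocampus (n = 7) and 89.4 ± 19.2 in striatum (n = 7), and did not pass the test against cortex in any of them. Its cerebellum libraries, with 139 and 158 FPKM, lay above every library of these structures (highest 130, 119 and 110), which was not tested. The highest cortex P0D7 library, with 147 FPKM, lay between the 2 cerebellum libraries. ENSMFAG00000031833 had means of 325 ± 79.4 FPKM in brainstem (n = 6), 273 ± 68.7 in hippocampus (n = 7) and 260 ± 59.0 in striatum (n = 7), with 344 and 451 FPKM in cerebellum, and also did not pass against cortex.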

How the data were processed

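RNA of isolated microvessels and of cultured ECs was sequenced as read pairs after depletion of ribosomal RNA. Per the study's methods, the authors removed ribosomal, short and low-quality reads, aligned the rest to the Washington University cynomolgus assembly with the Omicsoft Sequence Aligner and counted pairs over the Ensembl gene model in ArrayStudio. The authors deposited estimated counts per gene, not normalized (1.45% of values not whole), and FPKM per gene, scaled to gene length and library total. Some gene lengths behind the FPKM differed between libraries, so levels and the rule used FPKM and tests used counts. The direction between brainstem and hippocampus within preparations, counted over the members and all genes, used TMM-scaled log2 CPM. Read pairs carry no molecular identifiers. No pair of libraries of a group came as close as sampling noise (mean chi-square per gene 17.5 or more over 129 pairs). Noise alone gives 1. No library was therefore taken as a repeat of another, and each counted as 1 replicate. This check cannot tell whether codes share an animal.

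After rounding to whole numbers, the counts were compared by the quasi-likelihood F test of edgeR (version 4.0.16, R version 4.3.3; TMM, trended dispersion, Benjamini-Hochberg adjustment). One fit took the 22 cortical libraries and the 13522 genes that reached 1 FPKM in 50% or more of the samples of any fraction. The other took the 30 P0D7 libraries and the 12114 genes that reached 1 FPKM in 3 or more of them. Calls needed a 1.5-fold change and an adjusted p of at most 0.05. DESeq2 1.42.0, other size factors, no filter, fits of only the compared groups, other limits of the rule, the preparation block and leaving out each library were the alternatives. The scripts were tested on simulated data. The members, lists and alternatives were chosen with earlier results of these data known. The examples were the 2 members highest at P0D0 whose libraries did not overlap at either step, and the 2 of smallest p among those higher in brainstem than in hippocampus in the fit with the block.

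Preparation codes were taken to pair libraries where the deviations of every same-code pair from the group means correlated over 0.1. This held for all comparisons among the structures without cerebellum (brainstem and hippocampus: 0.555 to 0.839 over 6 pairs) and for P1D7 with P0D7 (0.251 to 0.579), but not for P0D0 with P0D7 (-0.005 to 0.165). Gene lists and cell type markers written as symbols were not applied, and neither gene positions nor sequences were used here, as no identifier matched a symbol.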

Additional observations from a re-analysis of the deposited data

Results flagged for a closer look

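Of 36 groups of 4 to 10 libraries examined, 2 had a library far from the others. Chance gives about 1 in 20 groups where these are independent, which they are not here. Both values belong to ENSMFAG00000040183 in preparation BBB035. Its cortex P0D7 library had 55 FPKM, where the other 7 had 1.59 to 9.38. Its hippocampus library had 16.1 FPKM, where the other 6 had 0.453 to 6.67. The same preparation was also highest at P1D7 (7.33 FPKM), was above the other library in cerebellum (69.4 and 9.39) and came after BBB032 in striatum (16.2 and 28.8), but not at P0D0 (29.3, median 28.3). The cause was not tested.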

How the results depend on the processing

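Other limits of the rule changed the number of members, to 492 with 1.5-fold steps, 93 with 3-fold steps, 291 with at least 0.5 FPKM at P0D7 and 136 with at least 2 FPKM. It was 194 with medians in place of means (162 shared with the 213), 171 with FPKM scaled by TMM, 211 with the 6 complete preparations alone (187 shared), 212 with CPM (208 shared; chosen after seeing the data) and 200 to 220 with single libraries left out. Members lower at both steps numbered 171 to 197 under the other normalizations, filters and fits, 174 of them with the preparation block, and 164 to 185 without single libraries. The median log2 change of all genes was -0.06 at the first step with TMM and -0.17 with DESeq2's size factors, and -0.02 and -0.18 at the second step with TMM and with library size alone.

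With the replicate block (preparation code), members called were 46 for brainstem against hippocampus, and 25, 23 and 19 for brainstem, hippocampus and striatum against cortex, where the fit without it called 0, 2, 2 and 0. The block called no further members in the other comparisons among structures and moved the calls at the cortical steps by less than 1.5 times. It raised members at an unadjusted edgeR p under 0.05 from 45 to 95 for brainstem against hippocampus and 21 to 61 for striatum against hippocampus. The rise was 5 to 18 for brainstem against striatum and 24 to 67 for striatum against cortex. All genes at that p rose too, from 11.4% to 33.2%, 4.80% to 18.6%, 1.27% to 3.94% and 8.28% to 23.9% in the same order. With the block, 44.6%, 28.6%, 8.45% and 31.5% of members were at that p. The block removes what libraries of a preparation share. Preparations with a single cortical library add nothing to the steps in that fit. DESeq2 called 6, 7 and 2 members against cortex and 1 for striatum against hippocampus. In the same comparisons it called 95, 88, 29 and 4 of all 12114 genes. Fits of only the compared groups called 1 member higher in brainstem than in cortex, where 6 of all genes were higher and 8 lower. They called 1 member lower in hippocampus than in cortex, where 14 of all genes were higher and 15 lower. The counts against cortex without single libraries stand without a share of all genes, so nothing is read from them. These counts were 1 to 6 in brainstem, 1 to 2 in hippocampus and 0 to 1 in striatum. For brainstem against hippocampus with the block they were 7, 35, 15, 5, 14 and 45 without each of the 6 brainstem libraries in turn and 46, 9, 16, 11, 24, 15 and 46 without each of the 7 hippocampus libraries, in fits chosen after seeing the data. The cause of these changes was not tested. Under every alternative run, ENSMFAG00000044045 and ENSMFAG00000031833 kept the direction of their log2 changes at the 2 cortical steps. ENSMFAG00000040183 and ENSMFAG00000032399 kept theirs between brainstem and hippocampus. Some log2 differences of the examples against cortex changed sign with the block, such as from -0.02 to 0.65 for ENSMFAG00000040183 in striatum. Many members were near 1 FPKM in cultured cells, where counts are low and the second fall is least precise, and P0D0 had the fewest counts per library.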

Other observations

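The members were genes of ordinary length. Among members with at least 20 counts for an estimate from the ratio of counts to FPKM at P0D0, 210 had a length, with a median of 2631 bases, against 2516 bases over all genes tested in cortex and 2727 over genes with a fall at the first step only. The estimated length stayed within 10% between P0D0 and P0D7 in 190 of 208 members, and between P0D7 and P1D7 in 161 of 182.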
